A study of Mus musculus with 2 samples.

Results

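Hox cluster genes were examined in nuclei of the whole fetal mouse brain by single-nucleus RNA-seq, as the 39 features whose symbol is Hox followed by the letter of a chromosome cluster and the number of a paralog group, out of 55416 features in all. Antisense and host transcripts of the clusters were not members. The series holds 1 library of wildtype brain and 1 library of Cav1 knockout brain, and the gene knocked out encodes caveolin 1, a protein of small pits in the cell membrane. Nuclei were taken from frozen tissue and counted with a droplet assay that tags the 3′ ends of transcripts and gives each captured molecule its own identifier (UMI), which keeps PCR copies from being counted again. Strain, embryonic day, sex, number of animals, the design of the knockout allele and how the tissue was dissected are not given in the sources used here, and no treatment is named. Both libraries were labelled as the same tissue and age, so they share all stated conditions except the genotype.

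Hox genes encode homeodomain transcription factors that give cells their position along the head-to-tail axis. In the mouse they lie in clusters on separate chromosomes, HoxA to HoxD, and genes at the low-numbered end of a cluster are active further forward than genes at the high-numbered end. In the developing nervous system their transcripts mark the hindbrain and spinal cord, with the low-numbered groups in the hindbrain, while the forebrain and midbrain lack them.

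With 1 library per genotype there was no replicate and no test. Differences were read against counting error only, as exact 95% intervals, and the genotype, the animal, the dissection and the library cannot be told apart. The filters left 6686 wildtype-labelled nuclei (17205381 UMIs) and 6680 knockout-labelled nuclei (19878903 UMIs), with median depths of 2134 and 2366 UMIs per nucleus. The targeted gene did not separate the libraries, with 71 Cav1 UMIs under the wildtype label and 80 under the knockout label, a log2 ratio of -0.04 (interval -0.52 to 0.45). Tags from the 3′ end do not tell which exons were present. The neighbouring gene Cav2 had 19 and 764 UMIs. Because Cav1 did not check the labels, the libraries are called by their labels throughout. Where a pair of values is given, the wildtype-labelled one comes first. The libraries shared 43 barcode sequences, and 0 and 1 of these were on kept nuclei with a Hox UMI.

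Hox transcripts were rare in the wildtype-labelled library and more frequent in the knockout-labelled library. The 39 members together had 32 UMIs in the former and 554 in the latter. This was 1.86 and 27.9 UMIs per 1000000 of the library (CPM), a 15.0-fold difference (interval 10.5 to 22.1) and a log2 ratio of 3.91 (3.39 to 4.47). Of the 32 UMIs, 13 lay in 2 nuclei, and without these the log2 ratio was 4.66 (4 to 5.4). A Hox UMI was found in 21 of 6686 wildtype-labelled nuclei (0.314%, 0.194% to 0.480%) and in 352 of 6680 knockout-labelled nuclei (5.27%, 4.75% to 5.83%). When each nucleus was thinned to 1000 UMIs, 10 of 5840 nuclei (0.171%) and 134 of 5569 nuclei (2.41%) held one, with 846 and 1111 shallower nuclei left out. Of the members, 17 were detected in the wildtype-labelled library, 19 in the knockout-labelled library and 11 in both, and 14 had no UMI in either.

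The chromosome clusters differed in how far their libraries lay apart. HoxA, on chromosome 6 at 52132570 to 52237822 of GRCm39, had 3 and 155 UMIs, for a log2 ratio of 5.48 (3.91 to 7.78). HoxB, on chromosome 11 at 96085106 to 96259082, had 10 and 330 UMIs (log2 ratio 4.84, 3.94 to 5.91). HoxD, on chromosome 2 at 74498654 to 74595486, had 3 and 32 UMIs (log2 ratio 3.21, 1.53 to 5.56). HoxC, on chromosome 15 at 102829538 to 102945278, had 16 and 37 UMIs (log2 ratio 1.00, 0.12 to 1.95). The HoxC interval held 0 with a minimum of 1000 genes per nucleus (-0.04 to 1.94) or at most 1% mitochondrial UMIs (-0.26 to 1.68), and its log2 ratio was 1.83 (0.75 to 3.07) without 2 wildtype-labelled nuclei that held 7 of the 16 UMIs. HoxB thus held 59.6% of the Hox UMIs of the knockout-labelled library, and HoxC held 16 of the 32 UMIs of the wildtype-labelled library, against 37 of 554 (6.68%) in the other.

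The most anterior paralog group was almost silent in both libraries. Group 1, whose members pattern the early hindbrain and the neural crest that leaves it, had 1 and 2 UMIs. Group 2, which sets identity in the hindbrain segments that form the facial nerve circuits and in the second pharyngeal arch, had 0 and 87 UMIs. Its exact interval for the ratio began at 20.0-fold in favour of the knockout label, and with the 0 set to a floor of 3 UMIs per library the ratio was 25.1. Hoxa2 had 0 and 35 UMIs, with an interval from 7.79-fold up, and Hoxb2 had 0 and 52 UMIs, with an interval from 11.8-fold up.

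Group 3 gave the most Hox UMIs. Its members act in the caudal hindbrain and the arches behind the second. The group had 239 UMIs under the knockout label and 3 under the other (log2 ratio 6.11, 4.54 to 8.40). Hoxb3 alone had 3 and 175 UMIs, or 0.174 and 8.80 CPM (7.55 to 10.2 in the latter) (log2 ratio 5.66, 4.09 to 7.95). Nuclei with a Hoxb3 UMI numbered 2 and 112. Hoxa3 had 0 and 48 UMIs (interval from 10.8-fold up), and Hoxd3 had 0 and 16 UMIs (from 3.34-fold up). The annotated span of Hoxa3 holds Hoxa4, Hoxa5 and Hoxa6 on the same strand. Likewise Hoxd3 overlaps Hoxd4, and Hoxc5 overlaps Hoxc6, Hoxc8, Hoxc9 and Hoxc10. The division of UMIs among the genes of each such set is uncertain.

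Groups 4 and 5 followed. Group 4, expressed from the last hindbrain segments back, had 4 and 95 UMIs (log2 ratio 4.36, 2.96 to 6.27), and all 4 of its members had more UMIs in the knockout-labelled library. Hoxb4 had 1 and 41 UMIs (log2 ratio 5.15, 2.59 to 10.5), and Hoxc4 had 2 and 27 UMIs (log2 ratio 3.55, 1.55 to 6.66). Hoxd4 had 1 and 15 UMIs, and Hoxa4 0 and 12. Group 5, known for its part in the motor neurons that drive breathing, had 3 and 100 UMIs (log2 ratio 4.85, 3.26 to 7.15). Hoxa5 had 2 and 57 UMIs (log2 ratio 4.62, 2.71 to 7.70), and Hoxb5 had 0 and 35 UMIs, with an interval from 7.79-fold up. Hoxc5 had 1 and 8 UMIs, and its interval of -0.11 to 8.26 held 0.

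Group 6 had 6 and 26 UMIs (log2 ratio 1.91, 0.59 to 3.48). All 6 wildtype-labelled UMIs came from 2 nuclei, and 5 of them, 4 of Hoxc6 and 1 of Hoxb6, from 1 nucleus. Hoxb6 had 1 and 22 UMIs (log2 ratio 4.25, 1.62 to 9.62). Hoxc6 had 5 and 2 UMIs, a log2 ratio of -1.53 whose interval of -4.92 to 1.08 held 0. Hoxa6 had 0 and 2 UMIs.

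The posterior groups, which mark the spinal cord and the trunk, were rare in both libraries. Groups 7 to 13, with 21 members, had 15 wildtype-labelled and 5 knockout-labelled UMIs (log2 ratio -1.79, -3.61 to -0.26). The interval held 0 under 3 other filters: the log2 ratio was -0.92 (-2.04 to 0.14) with a minimum of 200 genes per nucleus, -1.37 (-3.25 to 0.27) with 1000 genes and -1.45 (-3.29 to 0.13) with at most 1% mitochondrial UMIs. Under the filter used here they made up 46.9% (29.1% to 65.3%) of the Hox UMIs of the former and 0.903% (0.294% to 2.09%) of those of the latter. Hoxc8 had 5 and 0 UMIs, Hoxb9 3 and 0, and Hoxc9 2 and 0. Hoxa7, Hoxc13 and Hoxd8 had 1 and 0 UMIs each, while Hoxb7 had 1 and 2 and Hoxb8 1 and 3. In each library the UMIs of these groups came 1 to a nucleus, and none of these genes had the 20 UMIs needed for a call. Of the 15 wildtype-labelled UMIs, 6 lay in nuclei of forebrain classes, which should lack Hox transcripts, and 1 of the 5 knockout-labelled ones did. The wildtype-labelled level of these groups over all nuclei was 0.872 CPM, beside 0.903 CPM of Hox UMIs in those classes. It is therefore not read as expression, and the share and ratio were not corrected for this.

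**Figure D1:**
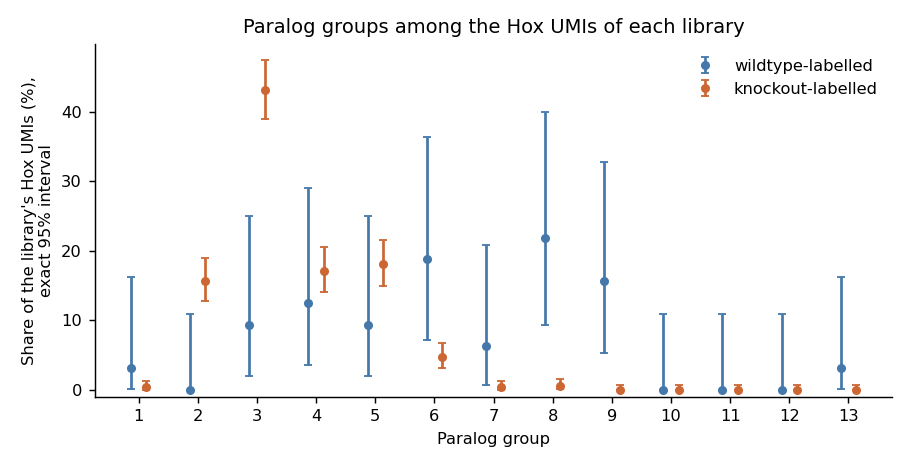
Share of each library's Hox UMIs (vertical axis, percent, with exact 95% intervals) by paralog group (horizontal axis), for the wildtype-labelled (blue, 32 UMIs) and the knockout-labelled (orange, 554 UMIs) library. The orange points peak at group 3 with 43.1% and are under 1% from group 7 on, while the blue points are highest at group 8 with 21.9%.

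Per kilobase of exon, the knockout-labelled library was led by Hoxb3 at 1.71 and Hoxa5 at 1.53 CPM per kb. Hoxb4 at 0.804, Hoxb2 at 0.75, Hoxa2 at 0.684, Hoxb5 at 0.632, Hoxc4 at 0.529 and Hoxb6 at 0.477 followed. The 3′ assay and intronic reads do not scale with exon length alone, so only the distance between the ends of this order is read.

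A member was called when it had at least 20 UMIs over both libraries, differed at least 1.5-fold and had an interval without 0. Of the 9 members with at least 20 UMIs, all 9 were called higher in the knockout-labelled library and 0 lower. Each had 0 to 3 wildtype-labelled and 22 to 175 knockout-labelled UMIs and so reached the minimum only through the library where it was high, which fixes the direction, and nothing is read from this count. Over all 21131 genes with that many UMIs, 3.14% were called higher and 1.29% lower by the same rule. With a minimum of 100 UMIs, 1 member was left, Hoxb3, and it was called higher, beside 2.12% of all genes called higher and 0.605% lower.

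**Figure D2:**
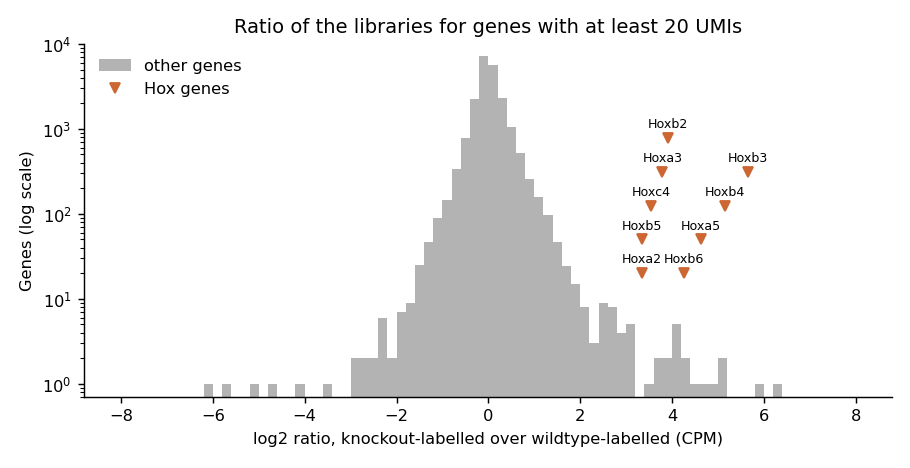
Number of genes (vertical axis, log scale) by log2 ratio of CPM in the knockout-labelled over the wildtype-labelled library (horizontal axis) for genes with at least 20 UMIs; grey bars are all other genes and triangles the 9 Hox genes, whose heights only keep the names apart. The triangles lie between 3.3 and 5.7, with a wildtype-labelled count of 0 set to 3 UMIs, and each passed the minimum only through its knockout-labelled UMIs; the bulk of genes centres near 0.

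Promoter sequence was looked up for members on both sides of the drop in counts along HoxA and for the paralogs of group 4, which all had more UMIs in the knockout-labelled library. RefSeq windows of GRCm38.p6, from 250 bases before to 50 bases after an annotated start, were at hand for 22 of the 39 members (24 windows). Capitals mark the letters searched on both strands: TGATNNAT (Hox with Pbx), TGACAG (Meis), AGGTCA (the repeat unit bound by retinoic acid receptors), CCAAT and TATAAA, where motifs that overlap run together. Hoxa5 (chr6:52204538-52204837, minus strand), Hoxa6 (chr6:52208623-52208922, minus strand) and Hoxa7 (chr6:52218524-52218823, minus strand) had 57, 2 and 0 UMIs in the knockout-labelled library.
Hoxa5: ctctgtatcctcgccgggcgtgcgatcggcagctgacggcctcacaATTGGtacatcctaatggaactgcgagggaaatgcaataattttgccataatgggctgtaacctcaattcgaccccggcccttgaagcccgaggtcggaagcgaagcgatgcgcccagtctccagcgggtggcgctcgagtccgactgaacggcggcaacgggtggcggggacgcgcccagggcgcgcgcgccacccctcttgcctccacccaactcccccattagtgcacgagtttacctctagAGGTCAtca
Hoxa6: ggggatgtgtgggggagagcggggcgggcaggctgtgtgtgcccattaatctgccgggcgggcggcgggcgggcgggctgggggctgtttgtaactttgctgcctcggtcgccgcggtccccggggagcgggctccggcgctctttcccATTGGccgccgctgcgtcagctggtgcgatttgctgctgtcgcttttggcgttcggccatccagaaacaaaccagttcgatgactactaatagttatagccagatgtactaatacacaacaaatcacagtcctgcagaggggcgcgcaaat
Hoxa7: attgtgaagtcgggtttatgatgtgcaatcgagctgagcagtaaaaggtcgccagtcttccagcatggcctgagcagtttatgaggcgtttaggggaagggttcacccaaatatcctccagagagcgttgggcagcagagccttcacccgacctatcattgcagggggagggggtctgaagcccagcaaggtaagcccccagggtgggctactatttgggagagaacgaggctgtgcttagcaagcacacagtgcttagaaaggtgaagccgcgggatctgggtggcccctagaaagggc
Hoxb4 (chr11:96318017-96318316, plus strand), Hoxc4 (chr15:103034145-103034444, plus strand) and Hoxd4 (chr2:74721728-74722027, plus strand) had 41, 27 and 15 UMIs there.
Hoxb4: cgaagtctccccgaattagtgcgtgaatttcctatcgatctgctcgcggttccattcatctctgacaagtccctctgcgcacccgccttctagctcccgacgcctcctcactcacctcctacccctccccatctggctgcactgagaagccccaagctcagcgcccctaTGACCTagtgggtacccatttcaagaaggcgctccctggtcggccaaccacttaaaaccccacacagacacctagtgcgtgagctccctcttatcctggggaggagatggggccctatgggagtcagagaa
Hoxc4: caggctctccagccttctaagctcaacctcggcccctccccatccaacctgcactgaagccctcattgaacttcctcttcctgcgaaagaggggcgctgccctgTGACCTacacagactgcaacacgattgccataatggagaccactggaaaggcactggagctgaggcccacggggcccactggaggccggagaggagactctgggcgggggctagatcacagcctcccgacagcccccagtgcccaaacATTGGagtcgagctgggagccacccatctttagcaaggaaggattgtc
Hoxd4: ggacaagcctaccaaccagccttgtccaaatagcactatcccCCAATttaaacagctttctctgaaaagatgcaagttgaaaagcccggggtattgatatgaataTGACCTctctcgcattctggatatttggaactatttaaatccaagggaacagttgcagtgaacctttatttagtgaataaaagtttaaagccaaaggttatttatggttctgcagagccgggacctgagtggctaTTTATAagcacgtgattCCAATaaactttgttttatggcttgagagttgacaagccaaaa
AGGTCA or its reverse complement stood in all 3 windows of group 4 and in that of Hoxa5, and in 7 of the 24 Hox windows (29.2%) against 16.3% of all 32851 windows of the same length. CCAAT was in 15 Hox windows (62.5%, against 37.4% of all), TATAAA in 4 (16.7%, against 13.6%), TGATNNAT in 4 (16.7%, against 8.85%) and TGACAG in 2 (8.33%, against 19.2%). Of the 7 members with AGGTCA, Hoxa5, Hoxb4, Hoxc4, Hoxd3 and Hoxd4 had 15 to 57 UMIs in the knockout-labelled library, and Hoxd8 and Hoxd10 had 0. Of the 15 members whose windows lacked it, 5 had UMIs there, Hoxa2 and Hoxa3 among them. These are matches of letters, and no binding was measured.

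Most noncoding transcripts detected inside the clusters were also more frequent in the knockout-labelled library. Of 45 other features within the 4 clusters, 29 had no UMI, and together they had 15 wildtype-labelled and 495 knockout-labelled UMIs. Gm11536, which lies antisense within Hoxb3, had 2 and 184 UMIs, and Hoxb3os, antisense to Hoxb3 and Hoxb2, had 0 and 102, with an interval from 23.5-fold up. Hoxaas2 had 1 and 71, Hotairm1 0 and 28, 5730596B20Rik 0 and 28, and Hoxaas3 2 and 25. Hoxd3os1 went the other way, with 5 and 0 UMIs and an interval that ended at 0.945-fold. In the knockout-labelled library Gm11536 was found in 40.2% of the 112 nuclei with a Hoxb3 UMI and in 0.685% of the 6568 nuclei without one, and Hoxb3os in 22.3% and 0.837%. Whether the counting used the strand is not given in the sources used here, so UMIs of a member and of its antisense partner cannot be told apart with certainty.

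Among nuclei with a Hox UMI, 2 of 21 wildtype-labelled (9.52%) and 61 of 352 knockout-labelled ones (17.3%) held UMIs of several members. Thinned to 1000 UMIs, this was 1 of 10 and 13 of 134 (9.70%). In the knockout-labelled library 61 nuclei (0.913%, 0.699% to 1.17%) held UMIs of 2 or more members and 24 of 3 or more, with at most 5 in a nucleus. Their median depth was 4261 UMIs, against 2334 in nuclei with no Hox UMI. Hoxb3 was in 46 of the 61, Hoxa3 in 20, Hoxb4 in 16, Hoxb2 in 12, and Hoxa2 and Hoxa5 in 11 each. Members of more than 1 chromosome cluster were together in 44 of them, and 3 held members of all 4 clusters. The most frequent pairs were Hoxb3 with Hoxb4 (13 nuclei), Hoxa3 with Hoxb3 (12) and Hoxb2 with Hoxb3 (10).

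The 61 nuclei held 234 Hox UMIs in all, so the groups seen in a nucleus depend on which molecules were captured. The highest paralog group seen is given as a description, and its relation to position was not tested. This highest group was group 2 in 1 of the 61 nuclei, group 3 in 16, group 4 in 21, group 5 in 13, group 6 in 9 and group 7 in 1. The nucleus with the most Hox UMIs, in cluster 4, held 5 of Hoxb3 and 1 each of Hoxa3, Hoxa5, Hoxb4 and Hoxc5 among 4423 UMIs. Another, in cluster 16, held 3 of Hoxb3 and 1 each of Hoxa2, Hoxc4, Hoxd3 and Hoxd4 among 3120.

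In the wildtype-labelled library only 2 nuclei held more than 1 member, and they carried 13 of its 32 Hox UMIs, all of groups 1 to 6. One held 2 UMIs of Hoxb3 and 1 each of Hoxc4 and Hoxc6 among 6375 UMIs. The other held 4 of Hoxc6 and 1 each of Hoxa5, Hoxb3, Hoxb6, Hoxc5 and Hoxd4 among 3243 UMIs. The remaining 19 UMIs lay singly in 19 nuclei of 12 clusters, and 15 of them were of groups 7 to 13. In the knockout-labelled library the 291 nuclei with 1 member held 320 Hox UMIs, of which 4 were of those groups.

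**Figure D3:**
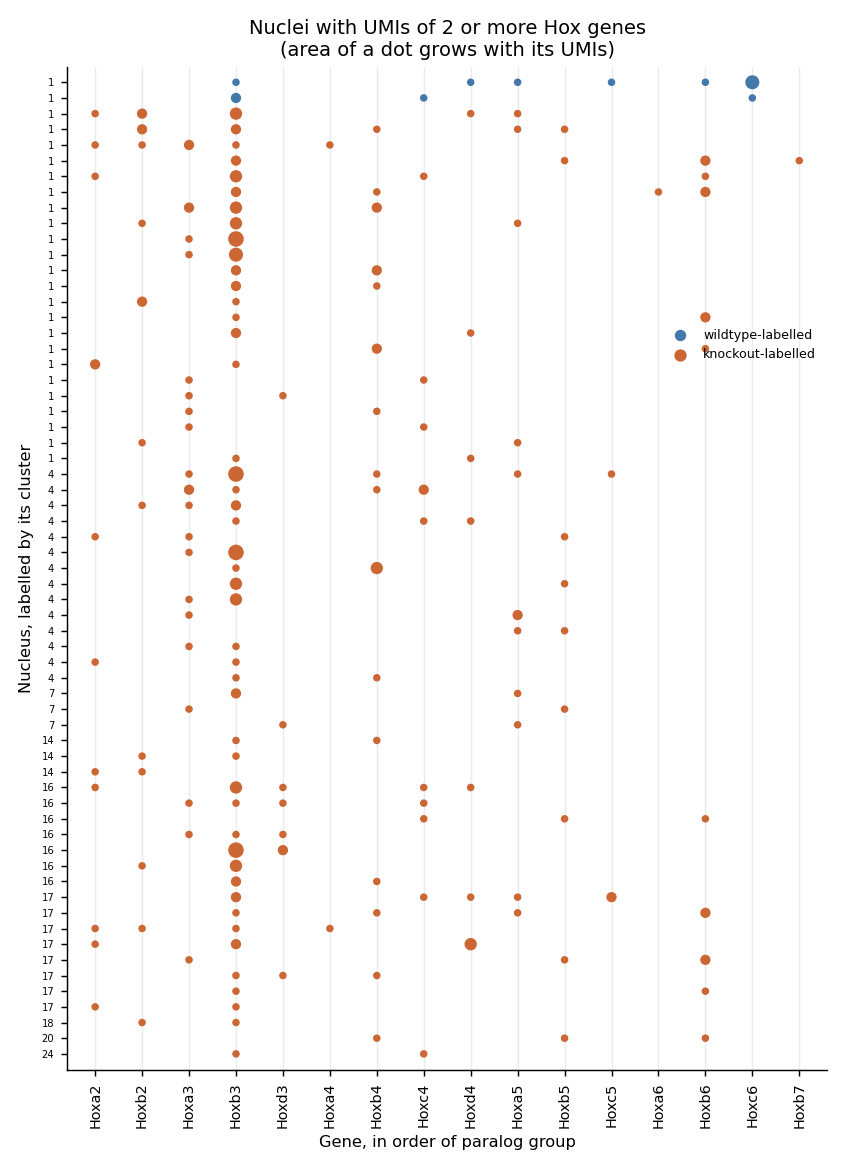
Each nucleus with UMIs of 2 or more Hox genes (vertical axis, labelled by cluster number) against the genes in order of paralog group (horizontal axis); blue dots are the 2 nuclei of the wildtype-labelled library, orange dots the 61 of the knockout-labelled library, and dot area grows with UMIs. Hoxb3 is in 46 of the 61 orange rows, and clusters 1 and 4 hold 23 and 14 of them.

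Clustering of the nuclei left out features whose symbol begins with Hox, and Hotair, Hotairm1, Hottip and Haglr. Other transcripts within the Hox clusters, such as Gm11536, were not left out by this rule. Of the 25 clusters of nuclei, 6 held 77.6% of the Hox UMIs of the knockout-labelled library. These 6 clusters, chosen by that count and therefore given as a description, held 42.8% of its nuclei and 26.4% of the wildtype-labelled nuclei. Cluster 1, led by the noncoding RNA Snhg11 and the cadherins Cdh18 and Cdh9 and left unnamed, had 14 and 162 UMIs, or 8.27 and 44.4 CPM (log2 ratio 2.42, 1.64 to 3.33). Of the 14, 13 lay in 2 of the 395 wildtype-labelled nuclei of the cluster. Without these 2 nuclei the cluster had 1 wildtype-labelled UMI, or 0.594 CPM, and a log2 ratio of 6.22 (3.72 to 11.5). A Hox UMI was in 0.759% of its wildtype-labelled and 11.5% (9.28% to 14.1%) of its knockout-labelled nuclei. Cluster 4, led by Dcdc5, Ecel1, Sim1, Pax2 and Isl1 and also unnamed, had 4 and 100 UMIs, or 3.90 and 53.3 CPM (log2 ratio 3.77, 2.37 to 5.68), and group 3 made up 60 of its 100 knockout-labelled Hox UMIs.

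The choroid plexus epithelium-like nuclei, cluster 16, are named for the tissue that secretes cerebrospinal fluid, which forms in the hindbrain as well as in the forebrain. They had 1 and 46 Hox UMIs, or 2.25 and 82.5 CPM, and 18 of the 163 knockout-labelled ones held at least 1. Hoxb3 gave 47.8% of these UMIs, and Hoxd3 gave 10.9%. Cluster 17, led by Gm3550, had very high UMI counts (median 7796 under the knockout label) and 1 and 53 Hox UMIs. Its knockout-labelled level was 28.7 CPM. Cluster 14, led by Cyp26b1 and Pax3, had 21 in the knockout-labelled library (28.3 CPM). Cluster 0, of low depth (median 706 under the knockout label) and led by haemoglobin genes, had 3 and 48. Its knockout-labelled level was 64.1 CPM (47.25 to 84.97), beside 44.4 in cluster 1 and 53.3 in cluster 4. It held 0 nuclei with several members. Cajal-Retzius-like nuclei, early neurons of the cortical surface, had no Hox UMI in either library. They numbered only 40 and 35, so the exact intervals allow up to 8.81% and 10% of nuclei with one.

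**Figure D4:**
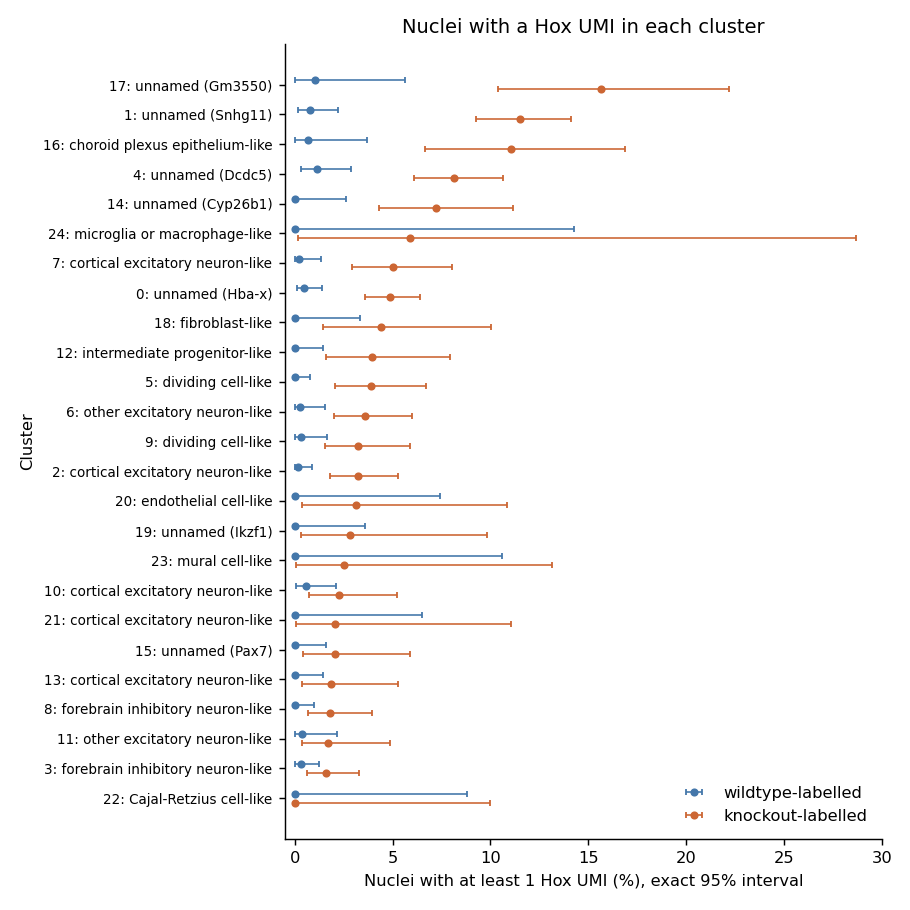
Share of nuclei with at least 1 Hox UMI (horizontal axis, percent, with exact 95% intervals) in each cluster (vertical axis, by number with its name or first leading gene), in the wildtype-labelled (blue) and the knockout-labelled (orange) library. Clusters 17, 1 and 16 lead by this share in the knockout-labelled library, and the forebrain inhibitory neuron-like clusters 3 and 8 are near the bottom. Shares are not adjusted for depth, and cluster 17 had a median of 7796 UMIs per knockout-labelled nucleus.

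Forebrain classes, which should lack Hox transcripts, gave the level below which a UMI is not read as expression. In the cortical excitatory neuron-like, forebrain inhibitory neuron-like and intermediate progenitor-like nuclei together, 6 of 2916 wildtype-labelled nuclei (0.206%) and 60 of 2158 knockout-labelled nuclei (2.78%, 2.13% to 3.57%) held a Hox UMI. Their levels were 0.903 and 11.8 CPM, and their median depths 2019 and 2178 UMIs. The counts, shares and ratios given above were not corrected for this level. Of the Hox UMIs in these classes, all 6 wildtype-labelled and 1 of 64 knockout-labelled ones were of groups 7 to 13. Clusters 11, 15 and 19, outside these classes, were among those below 11.8 CPM under the knockout label, at 4.76, 7.82 and 8.78 CPM. In the 6 clusters above, 0.680% of wildtype-labelled and 8.37% (7.38% to 9.44%) of knockout-labelled nuclei held one, at depths of 2142 and 2452 UMIs. Thinned to 1000 UMIs, the knockout-labelled shares were 4.55% (3.67% to 5.57%) in the 6 clusters and 1.39% in the forebrain classes. The 6 clusters were chosen by their knockout-labelled Hox UMIs, which favours a high share, so nothing is read from the distance between these sets. The difference between the libraries was thus present in both sets of nuclei, and 3 of the 61 nuclei with several members lay in the forebrain classes.

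The mix of Hox genes was not the same in these nuclei. Hoxb3 gave 39.3% (33.0% to 45.9%) of the Hox UMIs of the 61 nuclei with several members and 12.5% (5.55% to 23.2%) of those in the forebrain classes. Hoxa5 gave 5.13% (2.68% to 8.79%) and 18.8% (10.1% to 30.5%), and Hoxb5 3.85% and 12.5%. The 61 nuclei were chosen by their Hox UMIs, which favours the member with the most. In all knockout-labelled nuclei outside the forebrain classes, Hoxb3 gave 34.1% of 490 Hox UMIs, Hoxa5 gave 9.18% and Hoxb5 gave 5.51%. In the low-depth cluster 0, Hoxb3 gave 18.8% (8.95% to 32.6%) and Hoxa5 14.6%. The part of RNA outside nuclei in these shares was not tested. When the wildtype-labelled rate of each cluster was applied to the knockout-labelled nuclei, 52.1 Hox UMIs were expected and 554 found, a log2 ratio of 3.41, against 3.91 without regard to clusters. Without the 2 wildtype-labelled nuclei with several members, 24.1 were expected and the log2 ratio was 4.52, against 4.66 without regard to clusters.

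Genes that accompany Hox expression were read from the 61 nuclei with several members, set against the knockout-labelled nuclei with no Hox UMI in the same clusters. Factors of brainstem and spinal neurons had 360 UMIs against 206.1 expected, 1.75-fold (1.57 to 1.94), and 9 of 21 genes passed the limits of 2-fold and an interval without 0 upward. Of all 15842 genes so compared, 1.42% passed upward and 1.61% downward. The gene lists used here and below were chosen with earlier results of these data known, so their shares are given as a description. The glycine transporter Slc6a5, which marks glycinergic neurons of the brainstem and spinal cord, had 25 UMIs in 15 of the 61 nuclei against 1.94 expected, 12.9-fold (8.34 to 19.0). Pax8 and Pax2, factors of inhibitory neurons there, had 13 UMIs in 5 nuclei (8.67-fold, 4.62 to 14.8) and 23 UMIs (3.58-fold, 2.27 to 5.37). Lmx1b, a factor of dorsal and serotonergic neurons, had 24 (3.72-fold, 2.38 to 5.53). The transcription factor Tfap2a had 20 in 8 nuclei (7.52-fold, 4.59 to 11.6). The intervals of this contrast take each UMI as independent, although several UMIs of a gene can come from 1 nucleus, so they are too narrow for such genes.

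Other genes with high lower bounds in this contrast included Necab1, a calcium-binding protein, with 43 UMIs in 20 nuclei (4.46-fold), and Robo3, a receptor of commissural axons, with 26 in 7 nuclei (4.36-fold, 2.85 to 6.40). Klf5 had 7 UMIs in 5 nuclei, Adamts5 19 in 9, Il1rap 30 in 8 and Lamp5 14 in 10. Gm28526 with 13 UMIs and Nphs1 with 6 passed the same limits, each through 1 nucleus. Downward, Otx2os1, antisense to the forebrain and midbrain gene Otx2, had 13 UMIs against 58.4 expected (0.223-fold, 0.119 to 0.381), and Nts, a neuropeptide, had 1 against 11.9. Forebrain factors had 267 UMIs against 349.6 (0.764-fold, 0.675 to 0.861), with Fezf2 at 1 against 6.15. Factors of the midbrain and diencephalon had 195 against 250.9 (0.777-fold, 0.672 to 0.894), with En2 at 0 against 3.83.

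The same brainstem and spinal factors were compared between the libraries over all nuclei. Of 27 such genes with at least 20 UMIs, 15 (55.6%) were called higher in the knockout-labelled library and 0 lower, beside 3.14% and 1.29% of all genes, with a median log2 ratio of 0.94 beside -0.01 over all genes. Of the 27, 8 had under 10 wildtype-labelled UMIs and so reached the minimum mainly through the knockout-labelled library, and all 8 were among the 15. Because the list was chosen with earlier results of these data known, its share beside that of all genes is a description only. Lbx1, a factor of dorsal hindbrain and spinal interneurons, had 0 and 23 UMIs. Tlx3 had 3 and 54, Slc6a5 had 7 and 100, Pax2 had 13 and 241, and Skor2, a gene of Purkinje cells, had 3 and 66. Summed over the 35 genes of the list, the level was 404 CPM under the wildtype label and 474 CPM under the knockout label. Phox2a, Lbx1, Fev and Mnx1 were among those at 0 in the former, and Mnx1, a factor of spinal motor neurons, was at 0 in both. The part of these cell types in the Hox difference was not tested. Among 17 forebrain factors, 1 (5.88%) was called higher (Nkx2-1, 115 and 239 UMIs) and 0 lower, with a median of -0.29. Among 18 factors of the midbrain and diencephalon, 6 (33.3%) were called higher and 0 lower, with En1 at 52 and 208 UMIs.

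Partners and regulators of Hox genes were read against the same 3.14% of all genes called higher. Of 9 genes for TALE proteins, which bind DNA together with Hox proteins, Meis1 (1 of 9, 11.1%) was called higher, with 1625 and 3280 UMIs (log2 0.80, 0.72 to 0.89), and the other 8 were not called. Meis1 was also 3.03-fold (2.65 to 3.45) over expectation in the 61 nuclei, in 45 of which it was found. Of 14 genes of retinoic acid synthesis, clearance and reception, a signal that turns on low-numbered Hox genes in the hindbrain, 2 (14.3%) were called higher. Cyp26b1, which degrades retinoic acid, had 104 and 808 UMIs (log2 2.75, 2.45 to 3.06), and the binding protein Crabp1 had 37 and 76 (log2 0.83, 0.25 to 1.44). In the 61 nuclei Cyp26b1 was not raised, with 16 UMIs against 21.45 expected (0.746-fold, 0.426 to 1.21). There 1 of 12 genes of this list passed, the receptor Rarb, with 37 against 12.8 (2.89-fold, 2.04 to 3.99). Between the libraries Rarb was not called, with 1087 and 1021 UMIs. Of 8 segmental and caudal regulators, Fgf3, a signal of the hindbrain segments, was called higher with 9 and 55 UMIs (1 of 8, 12.5%). Fgf3 reached the minimum mainly through its knockout-labelled UMIs, so nothing is read from this count. None of 25 polycomb and trithorax genes, which keep Hox loci off or on, was called in either direction, and their median log2 ratio was -0.07.

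Beside the clusters, 1 of 7 flanking genes with at least 20 UMIs (14.3%, beside 3.14% of all genes) was called. Skap1, next to HoxB, was called higher with 102 and 205 UMIs (log2 0.80, 0.45 to 1.16), and its counterpart Skap2 beside HoxA had 134 and 192, an interval of -0.02 to 0.64. In the 61 nuclei Skap2 had 20 UMIs against 6.91 expected (2.89-fold, 1.77 to 4.47) and Skap1 15 against 6.07 (2.47-fold, 1.38 to 4.08). Evx1 and Evx2, homeobox genes at the posterior ends of HoxA and HoxD that are active in spinal and brainstem interneurons, had 1 and 10 UMIs and 2 and 17 UMIs.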

How the data were processed

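The authors deposited 1 matrix of raw UMI counts per library; the software, per the file headers, was Cell Ranger 6.1.1. The submitters' processing notes name Cell Ranger 3.0.1, STAR and the build GRCm39. Whether intronic reads or strand were used is not given in the sources used here. No deposited barcode held under 500 UMIs. Nuclei with at least 500 genes and at most 5% mitochondrial UMIs were kept. Scrublet's automatic threshold marked 0 doublets, so doublets were kept, and removing the top 8% of scores was an alternative.

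Clustering used scanpy 1.11.5 (2000 variable genes per library without the Hox-named features given above, 30 components, 15 neighbours, Leiden resolution 1). A cluster was named when 3 fixed markers of 1 class were 2-fold up, and 1.5-fold within each library. Ties, too few markers or opposing leading genes left 7 of 25 unnamed. The tie rule was set after the clusters were seen, and it left clusters 1, 4 and 14 unnamed. In the wildtype-labelled library cluster 1 made up 5.91% of nuclei, cluster 4 made up 5.33% and cluster 14 made up 2.09%; in the other they made up 10.6%, 9.01% and 3.74%.

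Intervals came from scipy 1.17.1: exact Poisson for CPM, exact binomial for ratios, Clopper-Pearson for shares. All 39 members were matched to GENCODE M39. Genes accompanying Hox expression, with at least 50 UMIs, were to be named from both libraries. The wildtype-labelled library had 2 such nuclei, so the 15 highest and 10 lowest by bound were ranked in the knockout-labelled library, a choice made after the data were seen. The members and gene lists were chosen with earlier results of these data known. The functions were tested on simulated data. Some genes are not reported here.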

Additional observations from a re-analysis of the deposited data

Results flagged for a closer look

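Barcodes outside the filter, which no comparison above used, held 189 Hox UMIs in the knockout-labelled library, a level above that of the wildtype-labelled library. These 189 lay in 4131 left-out barcodes, at 72.0 CPM (62.1 to 83.0), against 27.9 CPM in kept nuclei. The 3077 left-out barcodes of the wildtype-labelled library held 9 Hox UMIs at 4.88 CPM (2.23 to 9.27), and 7 of these were of groups 7 to 13, against 8 of the 189. In the knockout-labelled left-out barcodes Hoxa5 gave 22.2% (16.5% to 28.8%) of the Hox UMIs, Hoxb5 gave 13.2% and Hoxb3 gave 11.6% (7.44% to 17.1%). In the nuclei with several members, which were chosen by their Hox UMIs, Hoxb3 gave 39.3%. Whether the left-out barcodes hold damaged nuclei or free RNA was not tested.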

How the results depend on the processing

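Of 195 recomputed values over 30 results, 185 stayed within the limits of their counting interval, 10 moved and 0 reversed. The alternatives covered gene minimums of 200 and 1000, a mitochondrial limit of 1%, doublet removal, thinning, other clusterings and UMI minimums, and clustering with Hox features allowed. Without the 2 wildtype-labelled nuclei that held several members, an alternative chosen after seeing the data, the log2 ratio of all members was 4.66, or 4.52 at equal cluster makeup, and all 3 wildtype-labelled Hoxb3 UMIs were gone. The intervals of HoxC and of groups 7 to 13 held 0 under the filters named with those results. No interval of groups 2 to 6, of HoxA, HoxB or HoxD, or of a member with at least 20 UMIs came to hold 0 under another filter. Group 9, with 5 and 0 UMIs and an interval without 0, was recomputed only as part of groups 7 to 13. With at most 1% mitochondrial UMIs the log2 ratio against the floor of 3 UMIs was 4.25 for group 2 (interval from 3.91 up) and 3.39 for Hoxb2 (from 3.01 up), each from fewer nuclei. With a minimum of 100 UMIs, 1 member was called. Nuclei with a Hox UMI made up 5.85% of the knockout-labelled library at 1000 genes, and 0.171% and 2.41% of the 2 libraries after thinning. Of the Hox-positive knockout-labelled nuclei, 9.70% held several members after thinning, against 17.3%. Counting every nucleus with 1 or more members as Hox-positive, 104 genes passed upward against 225 with 2 or more. Depth limits the wildtype-labelled side, where 0 UMIs of a member allow up to 0.214 CPM by the exact interval. No paired analysis was possible because each genotype has 1 library.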
